A study of Mus musculus with 6 samples.

Results

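The genes described here are Stat2, Stat3, Stat4, Stat5a, Stat5b and Stat6, 6 members of the STAT family of transcription factors among the 18280 genes of the deposited table. They were taken by gene symbol from a list of members drawn up with earlier results of these data known, and all 6 passed the filter on low counts. Whole-ovary RNA was sequenced from 3 Dennd1a transgenic mice (Dennd1aTG, here TG) and 3 wild-type mice (WT). All 6 animals had been injected with PMSG (pregnant mare serum gonadotropin), which acts like follicle-stimulating hormone, 44 h before the ovaries were collected. The labels give no strain, age, dose or batch, and do not name the promoter that drives the transgene.

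STAT proteins wait in the cytoplasm until a cytokine, interferon or hormone receptor is engaged, when Janus kinases (JAKs) bound to the receptor phosphorylate them on tyrosine. The phosphorylated proteins pair, enter the nucleus and bind short DNA elements near their target genes. STAT2 serves type I interferon and works with IRF9, STAT3 serves the IL-6 family, STAT4 serves IL-12 in T and NK cells, STAT5A and STAT5B serve prolactin and growth hormone, and STAT6 serves IL-4 and IL-13. In the rodent ovary the prolactin receptor and the STAT5 proteins are known for maintaining the corpus luteum. The values below are transcript levels and carry no information on phosphorylation.

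The libraries held between 17075484 and 18516171 estimated counts, and 14124 genes had enough counts to be tested. Dennd1a measured between 570 and 588 CPM (counts scaled to the effective library size) in the TG libraries and between 39.5 and 49.3 CPM in the WT libraries, so every library matched its genotype label. The 8 granulosa, 7 theca and 9 oocyte markers listed for this tissue were all in the table, and none of them was at 0 in all 6 libraries. In 2 libraries a marker of another tissue stood out. The fat-cell gene Cfd was at 86.8 CPM in TG replicate 2 and at most 9.45 elsewhere, and the oviduct gene Ovgp1 at 40.9 CPM in WT replicate 3 and at most 5.99 elsewhere. The result for Stat2 is therefore also given without these libraries.

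Per unit of transcript length, 5 of the 6 genes had WT means between 21.2 and 32.5 FPKM and Stat4 was far lower. FPKM scales read counts to transcript length and library size. The WT means were 32.5 ± 1.82 for Stat3, 31.0 ± 3.50 for Stat5b, 28.9 ± 0.168 for Stat6, 27.0 ± 6.20 for Stat2, 21.2 ± 2.88 for Stat5a and 0.483 ± 0.206 for Stat4 (SD, n = 3 each). The ranges of neighbours in this order overlapped from Stat3 down to Stat5a, and the range of Stat5a did not overlap that of Stat4. In TG ovaries Stat3 again led at 32.2 ± 1.09 FPKM, followed by Stat5b at 28.9 ± 0.978, Stat6 at 27.4 ± 0.791, Stat5a at 20.8 ± 1.54, Stat2 at 11.0 ± 0.727 and Stat4 at 0.520 ± 0.0964 (SD, n = 3 each). There the ranges of Stat5b and Stat6 overlapped and those of the other neighbours did not. The range of Stat2 thus overlapped those of its neighbours in WT and lay below that of Stat5a in TG.

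**Figure D1:**
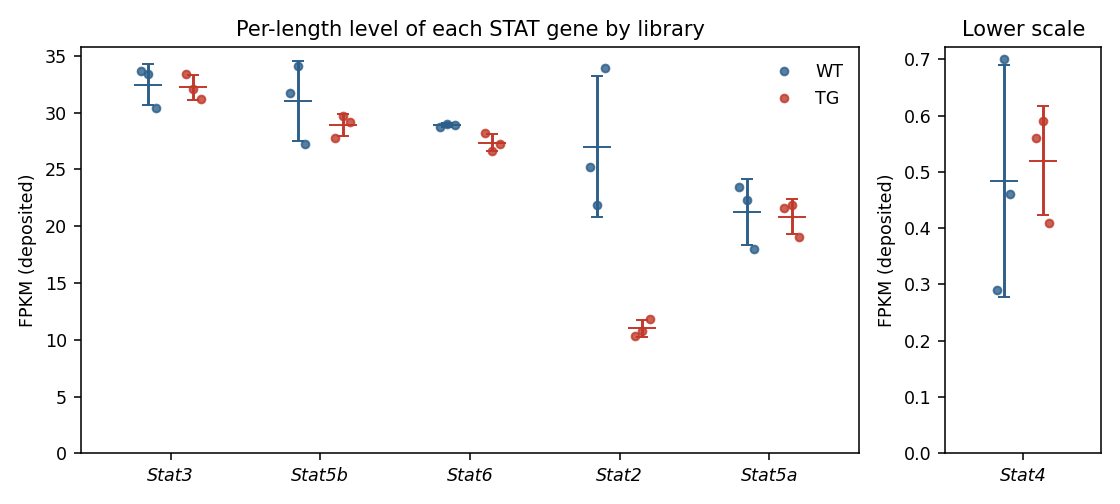
Deposited FPKM of the 6 STAT genes in each library (points), with the mean and SD of each genotype (horizontal mark and bar; TG red, WT blue, n = 3 each). Stat4 has its own axis; Stat2 lies between 10.37 and 11.79 in TG and between 21.9 and 33.89 in WT, while the ranges of Stat3, Stat4, Stat5a and Stat5b overlap between genotypes.

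Stat2, the interferon-signalling member, was 2.47-fold lower in TG than in WT ovaries. In replicates 1 to 3 its level was 42.7, 46.2 and 49.7 CPM in TG, against 106, 93.0 and 143 CPM in WT. All TG libraries were below all WT libraries, and the WT libraries varied more, with a coefficient of variation of 22.9% against 7.53% in TG. The log2 change (TG over WT, here and throughout) was -1.30, with SE 0.15 and a 95% interval of -1.64 to -0.96, and edgeR gave an adjusted p of 0.00158. Of the 6 STAT genes described, Stat2 was the 1 gene called at an adjusted p under 0.05, whereas 1.05% of all tested genes were called (149 of 14124), 1.02% lower and 0.0354% higher in TG. Without WT replicate 3, the library with the highest Stat2 level, the log2 change was -1.10 (edgeR adjusted p = 0.00128), and without TG replicate 2 and WT replicate 3 it was also -1.10 (adjusted p = 0.00538). In whole ovaries, fewer cells of a type and less RNA per cell cannot be told apart. The p-values weigh the difference between genotypes against the spread among the libraries of each genotype. The labels do not say how the animals were related or processed, so whether litter or processing differed with genotype is not known.

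The fall of Stat2 was then set against the other 5 members within each library. The log2 CPM of Stat2 minus the mean log2 CPM of Stat3, Stat4, Stat5a, Stat5b and Stat6 was -0.10, -0.03 and 0.25 in TG replicates 1 to 3 and 1.28, 0.84 and 1.77 in WT replicates 1 to 3. The groups did not overlap, and the difference between their means was -1.25. A two-sided exact permutation test over 20 arrangements gave p = 0.1, the smallest value that 3 animals against 3 allow. With no overlap between the groups this p was fixed, so it adds nothing to the fall of Stat2 itself. Stat4, at 15 to 33 counts, has the same weight in the mean as the other members. Without TG replicate 2 and WT replicate 3 the difference was -0.98.

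Among the other 5 members, 0 were called by edgeR, by DESeq2 or by limma-voom, and the edgeR p before adjustment was under 0.05 for 0 of them (for 4.08% of all tested genes it was). Libraries of the genotypes did not overlap for Stat2 and Stat6, 2 of the 6 genes, both lower in TG. Of all tested genes 8.25% had no overlap, and 5.04% none with TG lower. The plot of fold changes shows Stat2 apart from the other STAT genes. Irf9 lies near it (-1.46) and Usp18 further from 0 (-3.51), while the intervals of the interferon receptor and JAK genes include 0.

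**Figure D2:**
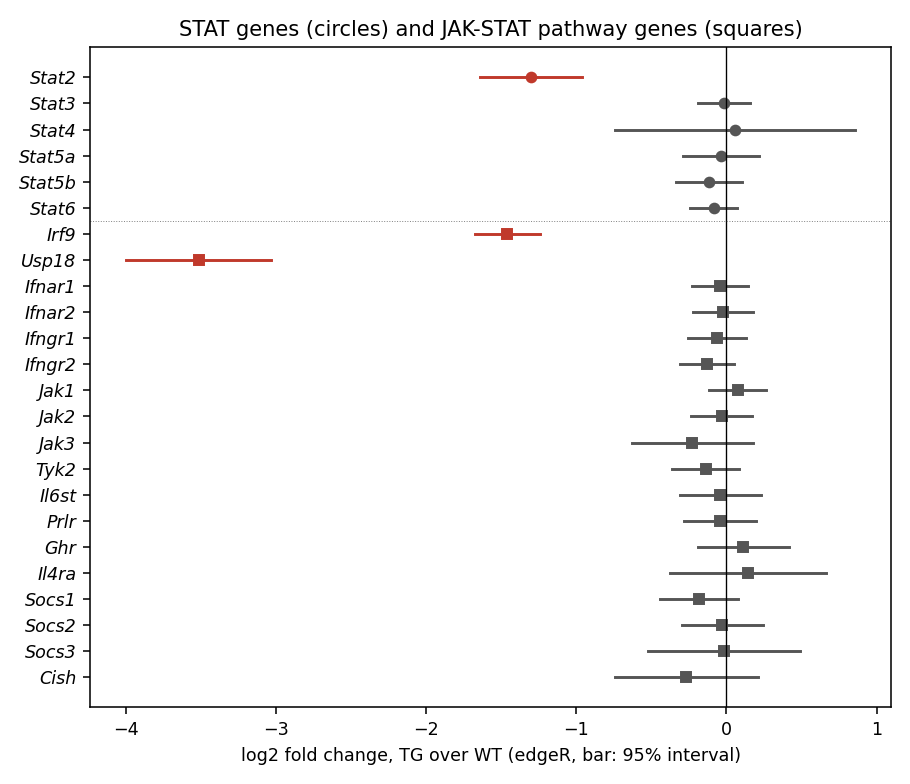
Log2 change (TG over WT) from edgeR with its 95% interval for the 6 STAT genes (circles) and for 18 genes of the JAK-STAT pathway picked by role (squares; Csf3r and Ptpn6, whose intervals exclude 0 without a call, are not plotted). Red marks an adjusted p under 0.05; Stat2, Irf9 and Usp18 are red, and every other interval shown includes 0.

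Irf9, the DNA-binding partner of STAT2 in the interferon-activated complex ISGF3, fell alongside it. Irf9 measured 38.5, 42.4 and 41.8 CPM in TG, against 109.5, 103 and 125 CPM in WT replicates 1 to 3, with no overlap. Its log2 change was -1.46 with SE 0.10, and edgeR gave an adjusted p of 5.78e-05. Of the 5 genes of the type I interferon receptor complex and its ISGF3 partner, Irf9 was the 1 called lower and 0 were called higher. Of all tested genes 1.02% were called lower and 0.0354% higher. The receptor chains Ifnar1 and Ifnar2 had log2 changes of -0.04 (SE 0.08) and -0.02 (SE 0.09). The receptor-bound kinases Jak1 and Tyk2 had 0.07 (SE 0.08) and -0.14 (SE 0.10). The median of these 5 genes was -0.04, and that of all tested genes 0.00. For the type II interferon receptor genes Ifngr1 and Ifngr2 and the kinase Jak2, 0 of 3 were called, with log2 changes between -0.13 and -0.03.

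The change of Stat2 was smaller in size than those of listed interferon-stimulated genes, a difference that was not tested. All 18 tested genes of the interferon response list were called lower (median log2 change -3.05, range -4.03 to -1.34), and each of the 18 had a larger fall than Stat2. These genes were listed with earlier results of these data known. Neither their direction nor the size of their falls beside that of Stat2 is therefore independent evidence. Oas1a, of the enzyme family that makes the RNase L activator, had the smallest p of the list, at -2.84 (SE 0.13), followed by Ifi44 at -3.13, the transcription factor gene Irf7 at -3.78 and the ubiquitin-like modifier gene Isg15 at -3.63. Of the 143 other genes called lower over the whole table, 96 had a larger fall than Stat2 and 47 a smaller one, and their median was -1.60. The summed level of the 18 genes was 406, 471 and 443 CPM in TG, against 2318, 1766 and 2774 CPM in WT replicates 1 to 3. WT replicate 3 was highest and WT replicate 2 lowest among WT libraries for Stat2, for Irf9 and for this sum.

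**Figure D3:**
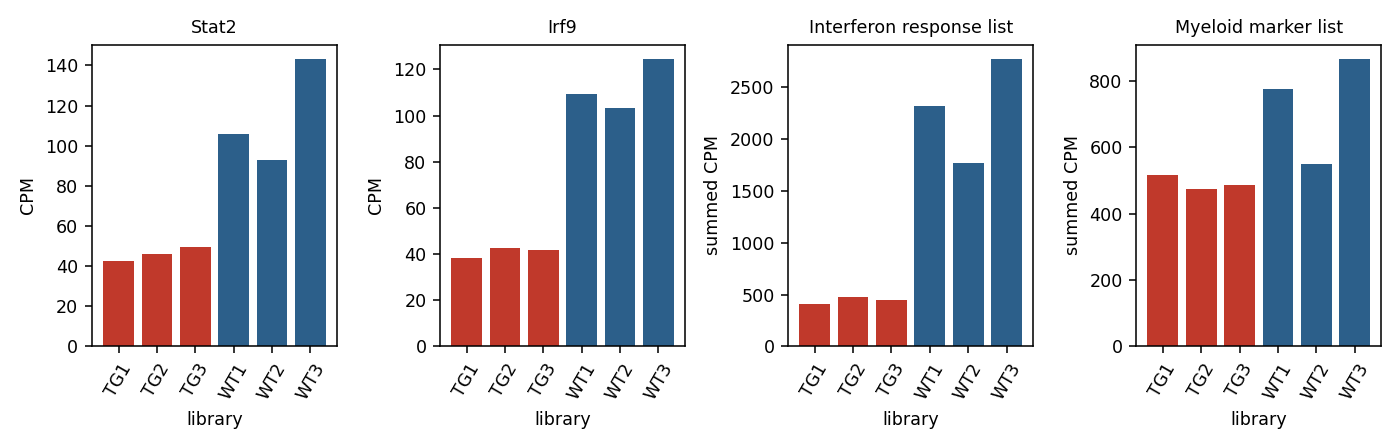
Level of Stat2 and Irf9 (CPM) and summed CPM of the interferon response list and of the macrophage and myeloid marker list in each library (bars; TG red, WT blue; axes start at 0). In all 4 panels WT replicate 3 is the highest library, WT replicate 2 is the lowest of the WT libraries and every TG library is below every WT library.

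Some markers of macrophages and other myeloid cells also fell in TG. Of the 18 listed markers 2 were called lower, the protease gene Ctss at a log2 change of -0.91 (SE 0.15) and the pore-forming Mpeg1 at -0.82 (SE 0.15), and 0 were called higher. Of all tested genes 1.02% were called lower. The median of the 18 markers was -0.63, with a range from -0.96 to -0.03, so some were nearly unchanged, and 18 of 18 values were below 0. All TG libraries were below all WT libraries for 11 of the 18 markers (5.04% of all tested genes), and 12 had an edgeR p under 0.05 before adjustment (4.08% of all tested genes). The summed level of the list was between 473 and 518 CPM in TG and between 551 and 866 CPM in WT, a ratio of the means of 1.49, compared with 2.47-fold for Stat2 and 5.19-fold for the summed interferon response list. The 2 calls did not hold without TG replicate 2, TG replicate 3 or WT replicate 1, nor without TG replicate 2 and WT replicate 3 (0 called each). They numbered 1 without TG replicate 1 or WT replicate 3 and 7 without WT replicate 2. None of the 18 markers was at 0 in all libraries, and the part of these cells in the fall of Stat2 was not tested.

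The promoter of Stat2 is shown because it holds a match to the core of the interferon-stimulated response element (ISRE), the DNA element that ISGF3 binds. Promoter windows of 300 bases (250 before to 50 after an annotated start) came from RefSeq on GRCm38.p6, and all 6 STAT genes matched, with 9 windows. The ISRE core was searched as GAAANNGAAA on both strands, and the STAT dimer element (GAS) as TTCNNNGAA and, with a wider spacing, as TTCNNNNGAA. The stretch below lies on the plus strand at chr10:128270248-128270330 and is written 5′ to 3′, with the ISRE core in capitals. It reads GAAACTGAAA on the other strand.
Stat2: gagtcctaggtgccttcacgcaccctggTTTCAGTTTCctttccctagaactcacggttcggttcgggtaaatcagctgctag

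The ISRE core of Stat2 begins 222 bases before the annotated start. A wider-spaced GAS match, TTCCCTAGAA, follows it at chr10:128270288-128270297 and does not overlap it. Of the other members, Stat4 held an ISRE core in its downstream window, 97 bases before that start, and it is printed for comparison from the plus strand at chr1:52008098-52008197.
Stat4: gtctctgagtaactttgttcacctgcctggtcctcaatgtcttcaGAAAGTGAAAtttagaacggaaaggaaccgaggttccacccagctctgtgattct

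A match of these letters was thus found in a member that fell and in a member that was not called. Stat4 was measured at 0.808 to 1.81 CPM, with a 95% interval of its log2 change from -0.74 to 0.85. Its lack of a call therefore says little, and its other window held no ISRE core. Windows of Stat3, Stat5a, Stat5b and Stat6 held no ISRE core, and 0 of the 9 member windows held TTCNNNGAA. Over all 32851 windows, 3.44% held the ISRE core, 8.30% TTCNNNGAA and 6.95% TTCNNNNGAA. Counted by gene, 3.99% of all genes with a window held the ISRE core in at least 1 of them. Of the 14 interferon response genes with a window, 9 held it, among them Isg15, Ifit1 and Oas1a. TTCNNNGAA was held by 3 of these 14 genes and TTCNNNNGAA by 2. The 2 windows of Irf9 held 0 matches to the ISRE core, as did the 1 window of Helz2 and the 3 windows of Adar, genes whose library profile was close to that of Stat2. However, 1 window of Irf9 held TTCNNNNGAA and 1 window of Adar TTCNNNGAA. Parp10, also close to Stat2 in profile, had 0 windows. A match describes the sequence and does not show that a factor binds there.

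Genes with the library profile closest to that of Stat2 were Helz2, Adar and Parp10. Likeness was the root mean square difference of log2 CPM, centred on each gene's mean over the 6 libraries, among 12698 genes that averaged 2 CPM or more. The difference from Stat2 was 0.05 for Helz2, 0.07 for Adar and 0.09 for Parp10, and its median over all compared genes was 0.69. Helz2, a helicase gene, measured 34.8, 38.8 and 39.4 CPM in TG, against 82.0, 71.3 and 116 CPM in WT replicates 1 to 3. Adar encodes an enzyme that edits adenosine in double-stranded RNA, and Parp10 an ADP-ribosyltransferase. They had log2 changes of -1.25 (Helz2), -1.26 (Adar) and -1.17 (Parp10). They were chosen by their likeness, so these falls are a description.

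**Figure D4:**
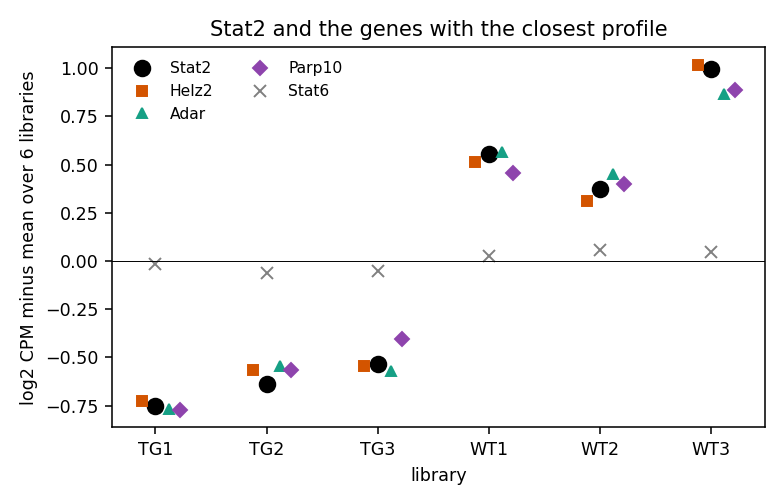
Log2 CPM of Stat2, of the 3 genes with the closest profile and of Stat6, minus each gene's mean over the 6 libraries (points, by library). Stat2, Helz2, Adar and Parp10 lie below 0 in all TG and above 0 in all WT libraries and peak in WT replicate 3, while Stat6 stays close to 0.

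Stat3, which carries IL-6 family signals, was the most highly expressed of the 6 genes per length in TG and had the smallest fold change. It measured 143, 141 and 135 CPM in TG, against 146, 146 and 133 CPM in WT replicates 1 to 3, and the groups overlapped. The log2 change was -0.02 (SE 0.08), and its 95% interval ran from a 0.875-fold to a 1.11-fold level in TG. Of 16 genes linked to STAT3, such as the acute-phase gene Lcn2 at -0.51 (SE 0.37), the oncostatin M receptor gene Osmr at -0.16 (SE 0.15), Bcl3 at 0.10 (SE 0.14) and the kinase gene Pim1 at -0.09 (SE 0.13), 0 were called. With 1.05% of all tested genes called, 0 of 16 is close to the table-wide share. The median of the 16 genes was -0.02. The signalling chain Il6st (gp130), shared by IL-6 family receptors, had -0.04 (SE 0.12), and the feedback inhibitor Socs3 had -0.02 (SE 0.22). The genes with the closest profile to Stat3 were Usp1, Cr1l and Fbxo28, at root mean square differences of 0.01, 0.01 and 0.02. The median difference from Stat3 over all compared genes was only 0.135, as Stat3 itself hardly varied. These differences are therefore not comparable in size with those from Stat2.

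Stat5a and Stat5b, the prolactin and growth hormone members, are close copies of each other, and their counts could not be fully separated. Stat5a measured 77.5, 79.7 and 68.9 CPM in TG, against 84.8, 81.9 and 65.5 CPM in WT replicates 1 to 3. Stat5b measured 129.6, 142 and 138 CPM in TG, against 150.0, 163 and 129.7 CPM in WT replicates 1 to 3. For both genes the groups overlapped, and WT replicate 3 had the lowest Stat5a level and the lowest Stat5b level of the WT libraries. The log2 change was -0.04 (SE 0.11, 95% interval -0.29 to 0.21) for Stat5a and -0.12 (SE 0.10, 95% interval -0.33 to 0.10) for Stat5b.

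Stat5a and Stat5b had fractional counts in 6 of 6 libraries, as when a read that fits several genes is divided among them. Their sum was whole (within 1e-06) in 6 of 6 libraries, at 3732, 3852 and 3546 in TG and 4358, 4482 and 3324 in WT replicates 1 to 3. The divided fractions of the pair therefore added up within it. In the GENCODE M21 coding transcripts, 14.7% of the 50-base stretches of Stat5a and 11.1% of those of Stat5b occurred in the other gene, and 6.31% and 4.87% of the 100-base stretches. No 50-base stretch of either was found in Stat3. Fitted as 1 feature, an alternative chosen after the values were seen, the summed pair had a log2 change of -0.09 (SE 0.10, edgeR adjusted p = 0.9995).

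The balance of the pair was compared by the log2 ratio of Stat5a to Stat5b FPKM. It was -0.36, -0.44 and -0.61 in TG and -0.44, -0.61 and -0.60 in WT replicates 1 to 3, so Stat5b was higher in every library. The genotype means were -0.47 ± 0.13 and -0.55 ± 0.10 (SD, n = 3 each). They differed by 0.08, less than the spread between replicates (two-sided exact permutation test over 20 arrangements, p = 0.6).

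Receptors and targets linked to STAT5 are given by their values, since with 1.05% of all tested genes called a count of 0 in a short list is close to the table-wide share. The prolactin receptor gene Prlr measured 869 ± 43.4 CPM in TG, against 895 ± 116 CPM in WT (mean ± SD, n = 3), a log2 change of -0.04 (SE 0.11), and the growth hormone receptor gene Ghr had 0.11 (SE 0.13). Of 10 tested genes linked to STAT5, 0 were called and their median was -0.01. Among them, the feedback inhibitor Cish had -0.27 (SE 0.21), the cyclin gene Ccnd1 -0.25 (SE 0.17), Onecut2 0.66 (SE 0.58) and Akr1c18, which inactivates progesterone and is repressed by prolactin, 0.67 (SE 0.71). The level of Akr1c18 was 60.9 ± 67.5 CPM in TG, against 38.2 ± 13.8 CPM in WT (mean ± SD, n = 3), and the TG libraries varied by more than their mean. Akr1c18 was at 35.4, 137 and 9.92 CPM in TG replicates 1 to 3, and Onecut2 at 8.82, 28.7 and 3.32 CPM. Both positive changes thus rest on TG replicate 2, the library with the high Cfd level. Socs2, another STAT5-linked inhibitor, measured 539 ± 18.9 CPM in TG, against 549.7 ± 95.4 CPM in WT (mean ± SD, n = 3). Stat5a was most alike in profile to Pafah1b2, Cemip2 and Klf6 (root mean square difference 0.03 each), and Stat5b to Xrcc4, Acads and Ptcd2 (0.02, 0.03 and 0.03). The median difference over all compared genes was 0.185 for Stat5a and 0.171 for Stat5b.

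Stat6, the IL-4 and IL-13 member, had the smallest spread of the 6 genes. It measured 101, 97.9 and 98.7 CPM in TG, against 104, 106 and 106 CPM in WT replicates 1 to 3, with coefficients of variation of 1.64% and 1.25%. The libraries did not overlap, with every TG value lower, but the log2 change of -0.09 (SE 0.07, 95% interval -0.24 to 0.07) was not called (unadjusted p = 0.252, edgeR adjusted p = 0.9997). The IL-4 receptor gene Il4ra had 0.15 (SE 0.23). Of 8 tested genes linked to STAT6 in alternatively activated macrophages, 0 were called, close to the 1.05% of all tested genes called. The lectin gene Mgl2 had 0.50 (SE 0.23), the chemokine gene Ccl17 -0.42 (SE 0.34) and Clec10a -0.11 (SE 0.22), and the median of the list was 0.05. Stat6 was closest in profile to Pnpla6, Bsdc1 and Ext2, at 0.01, 0.01 and 0.02, where the median over all compared genes was 0.136.

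Stat4, the IL-12 member of T and NK cells, was scarce in whole-ovary RNA. Its estimated counts were 25, 26 and 17 in TG and 15, 33 and 19 in WT replicates 1 to 3, or between 0.808 and 1.81 CPM, and the groups overlapped. The log2 change was 0.05 (SE 0.35), and the 95% interval from a 0.597-fold to a 1.81-fold level leaves changes of that size undetectable at this depth. T and NK cell genes linked to STAT4 were also low, with a sum between 8.71 and 11.4 CPM in TG and between 10.8 and 17.1 CPM in WT. Of the 8 tested, 0 were called. This count and that of the lymphocyte markers below are close to the 1.05% of all tested genes called. Gzmb, a cytotoxic granule protease gene, had -0.94 (SE 0.24, unadjusted p = 0.00351, edgeR adjusted p = 0.225), Nkg7 had -0.78 (SE 0.36) and the NK receptor gene Klrb1c -0.69 (SE 0.31). Over all 8 genes the median was -0.34 and the range from -0.94 to 0.32, with 7 values below 0. Of 7 tested lymphocyte markers 0 were called, with a median of -0.37 and a range from -0.69 to 0.60. Their summed level was between 5.40 and 8.34 CPM in TG and between 8.75 and 9.96 CPM in WT. Gmnn, Col13a1 and Spdl1 were the genes closest in profile to Stat4, at 0.14, 0.17 and 0.18, where the median over all compared genes was 0.407. The Stat4 profile rests on 15 to 33 counts per library.

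Among the kinases, receptors and brakes that STAT proteins share, Usp18 was the 1 gene called, and these counts are to be read against the 1.05% of all tested genes called. Of the 4 JAK genes 0 were called, and Jak3, the kinase of immune cells, had -0.23 (SE 0.18). Of 21 tested cytokine and hormone receptors 0 were called, with a median of -0.04 and a range from -0.81 to 0.32. The granulocyte receptor gene Csf3r had the smallest p, with -0.81 (SE 0.23, edgeR adjusted p = 0.370), followed by Il2rg at -0.20, Il21r at -0.53 and Il2rb at -0.37. Of 17 negative regulators, Usp18 was the 1 called lower, and 0 were called higher. Usp18, which removes ISG15 and also restrains the type I interferon receptor, fell from 58.5 ± 16.7 to 5.12 ± 0.221 CPM (SD, n = 3 each), a log2 change of -3.51 (SE 0.21; edgeR adjusted p = 4.25e-05). It is also in the interferon response list. The phosphatase gene Ptpn6 had -0.52 (SE 0.15, adjusted p = 0.440), and Socs1 had -0.19 (SE 0.12). The receptor genes Ifnar2, Il6st, Prlr and Ghr and the inhibitors Socs2 and Socs3 were named for their roles after their values were seen.

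Coordinates are RefSeq positions on GRCm38.p6, to which mm10 corresponds. Stat2 (Entrez gene 20847) spans positions 128270498 to 128292853 of chromosome 10, and Stat6 (20852) spans 127642955 to 127660987, ending 609510 bases before Stat2. Stat2 lies between Timeless and Il23a, which had log2 changes of 0.04 and -0.25 and were not called. Of the 62 other tested genes within 1000000 bases of Stat2, 0 were called. Counts near a gene are to be read against the 1.05% of all tested genes called, so 0 of 62 is close to the table-wide share. Stat5b (20851; 100780731 to 100859004), Stat5a (20850; 100859351 to 100885169) and Stat3 (20848; 100886806 to 100939594) follow each other on chromosome 11, with 346 bases between the first pair and 1636 between the second. In GENCODE M21 the converging ends of Stat5a and Stat3, on opposite strands, overlap by 72 bases, and Stat6 overlaps Nab2 by 40 bases, where reads of the partners cannot be told apart without strand. Within 1000000 bases of Stat3, 2 of 55 other tested genes were called. They were Dhx58, an RNA sensor gene, at -2.94 (SE 0.19), and Ifi35 at -1.21 (SE 0.12), both interferon-stimulated and named after their values were seen. Dhx58 and Ifi35 also lie within that distance of Stat5a and Stat5b, and Dhx58 is nearest to Stat5b, at 76460 bases. Stat4 (20849) spans 51987106 to 52107189 of chromosome 1.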

How the data were processed

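Per the submitters' processing notes, Bowtie2, RSEM 1.3.1, DESeq2 1.4.5 and build mm10 were used, without stated roles. Annotation and strandedness are not given in the sources used here. The authors deposited estimated counts per gene, as the headers name them, of which 8.50% to 9.12% per library are not whole. A further set of deposited columns was taken to be FPKM: its header gives no unit, and its scale between libraries follows the count totals.

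Counts were rounded and fitted over the whole table with edgeR 4.0.16 (R 4.3.3), using filterByExpr (minimum count 10, total 15), TMM scaling, the two-sided quasi-likelihood test, Benjamini-Hochberg over 14124 genes, threshold 0.05. CPM use effective library sizes. SEs come from the log2 change and the F statistic. Intervals include the spread between animals. The script was tested on simulated data. Replicates differed by more than sampling noise (chi-square per degree of freedom at least 7.94).

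Members and the 18 gene lists were chosen with earlier results of these data known. Named were all members, up to 4 genes per list with the smallest p, chromosomal neighbours and the 3 genes closest in profile. Another gene that fits the symbol pattern stayed in every fit and is not reported here. Alternatives used DESeq2 1.42.0, limma 3.58.1, other factors, filters and pseudocounts (1 and 0.1), a replicate block, and left-out libraries.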

Additional observations from a re-analysis of the deposited data

How the results depend on the processing

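Stat2 was called lower in 17 of 17 alternatives, with log2 fold changes from -1.43 to -1.10 and adjusted p up to 0.00990, and the number of described STAT genes called was 1 in each of them. Stat5b and Stat6 kept their direction in 17 of 17 and were called in 0. Signs near 0 turned when libraries were left out, with 0 calls: Stat3 (range -0.0705 to 0.00477) without TG replicate 3 or WT replicate 2, Stat5a (-0.187 to 0.0285) when TG replicate 3, WT replicate 1 or WT replicate 2 was left out, and Stat4 (-0.185 to 0.428) without TG replicate 1, TG replicate 2, WT replicate 1, WT replicate 3, or TG replicate 2 and WT replicate 3 together. Stat4 had no value where a filter removed it. Over the whole table DESeq2 called 11 genes higher in TG against 5. The myeloid list, with 2 members called lower, had 8 in DESeq2, 3 without a count filter or with a replicate block, and 1 in limma-voom and limma-trend. Leaving out a library gave Stat2 against the other members -1.48 to -1.02 and the Stat5a to Stat5b ratio 0.0223 to 0.147.

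Same-numbered TG and WT libraries had correlations of deviations of 0.358, 0.133 and 0.0838, so the numbers were not taken as pairs, although each TG library correlated best with its own number. With a replicate block, 153 genes were called lower and 6 higher, Stat2 had -1.28 (adjusted p = 0.00120), and sign-flip p was 0.25 for Stat2 against the other members and 0.5 for the Stat5a to Stat5b ratio. Stat4, at 15 to 33 counts, is the member most limited by depth.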
